A study of Mus musculus with 8 samples.

Results

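The measurements below describe 10 of the 41214 genes counted by RNA-seq in whole BM cells of mice, namely Gfi1, its paralog Gfi1b and 8 genes for the corepressor proteins with which both factors work. The 10 genes were listed by name, each symbol matched 1 Ensembl identifier, and all 10 passed the filter on low counts in each of the 4 comparisons between groups. The 8 libraries came from 8 C57Bl6 mice in 4 groups of 2 mice. Young KD mice were 39 and 42 days old, young KO mice were 48 and 44 days old, sick KD mice were 187 and 78 days old and old KO mice were 158 and 101 days old. KD mice carry the human GFI1 coding sequence knocked into the Gfi1 locus with a floxed neo cassette, placed antisense to Gfi1, that lowers its expression, and KO mice carry the Gfi1 knockout, so no group has an unmodified Gfi1 locus and no wild-type library was analysed. The labels give AML for both sick KD mice and no AML for the other 6 mice, whereas the study describes the disease of KD mice as an MPN. Age and disease cannot be told apart between sick and young KD mice, and genotype and disease cannot be told apart between old KO and sick KD mice.

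Gfi1 and Gfi1b are zinc-finger repressors that bind DNA at sites with an AATC core. The short SNAG domain at their N-terminus docks onto the histone demethylase LSD1, the product of Kdm1a, and LSD1 is held by a CoREST scaffold, encoded by Rcor1, Rcor2 or Rcor3, together with the histone deacetylases encoded by Hdac1 and Hdac2. Gfi1 also recruits the H3K9 methyltransferase G9a, the product of Ehmt2, and the LIM protein Ajuba. In BM Gfi1 is best known for granulocyte differentiation and for stem and lymphoid cells, and Gfi1b for erythroid cells and megakaryocytes.

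The start of both coding sequences is shown because it encodes the SNAG domain through which both factors reach the complex described here. The sequences are the first 60 coding bases on GRCm38, read 5′ to 3′ on the coding strand from GENCODE M21 transcripts, with capitals for bases that are the same in both genes. The Gfi1 stretch lies in exon 1 of transcript Gfi1-201 at chr5:107723779-107723838 and the Gfi1b stretch in exon 2 of Gfi1b-204 at chr2:28615317-28615376, both on the minus strand.
Gfi1: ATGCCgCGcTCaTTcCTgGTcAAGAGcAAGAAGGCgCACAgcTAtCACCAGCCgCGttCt
Gfi1b: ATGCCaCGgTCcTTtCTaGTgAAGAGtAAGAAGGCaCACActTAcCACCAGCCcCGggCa
The genes share 45 of the 60 bases (75.0%), and 18 of the 20 codons stand for the same amino acid.

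The promoter of Gfi1b is shown because its transcript was among those that differed most between the groups and because AATC is the core that Gfi1 and Gfi1b bind. The run below holds the 250 bases before the RefSeq start on GRCm38.p6, chr2:28621983-28622232 on the minus strand, with each AATC, or GATT on the other strand, in capitals.
Gfi1b promoter: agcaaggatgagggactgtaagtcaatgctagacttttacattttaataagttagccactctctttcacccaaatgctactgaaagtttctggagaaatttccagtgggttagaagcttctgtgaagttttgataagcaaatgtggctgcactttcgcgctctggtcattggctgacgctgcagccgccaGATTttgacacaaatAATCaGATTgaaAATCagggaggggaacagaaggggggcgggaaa
AATC was searched on both strands in windows from 250 bases before to 50 bases after each start. The Gfi1b window held 4 matches, and 10.1% of 32851 mouse promoter windows held at least 4, while 73.1% held at least 1. It also held 1 match to AAATCA, which contains AATC and was found in 14% of windows, and 1 match to GATAAG, the motif of GATA factors, found in 7.44% of windows. The windows of Ajuba and Rcor2 held 2 AATC matches each and that of Kdm1a held 1. The windows at the 2 Gfi1 starts held 1 and 0, those of Rcor1, Rcor3, Hdac2 and Ehmt2 held 0, and Hdac1 had no entry. These are matches of letters, and binding was not measured.

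The libraries held 26642067 to 42679114 counts on genes. Reads that the counting assigned to no gene made up 42% and 38.8% in the sick KD libraries and 26.9% to 33.8% in the other 6. The base was all reads that counted on a gene, on several or on none. Where the reads assigned to no gene lie was not examined. Levels are given as CPM, the number of counts scaled to a common library size with TMM normalization over all 8 libraries. Differences are log2 fold changes with their SE from the quasi-likelihood test of edgeR, and a gene was called when its Benjamini-Hochberg adjusted p over all genes tested was below 0.05. For 1 gene in 2 against 2 mice, the smallest two-sided p of an exact permutation test is 0.333, so each p below comes from a model fitted across all genes.

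**Figure D1:**
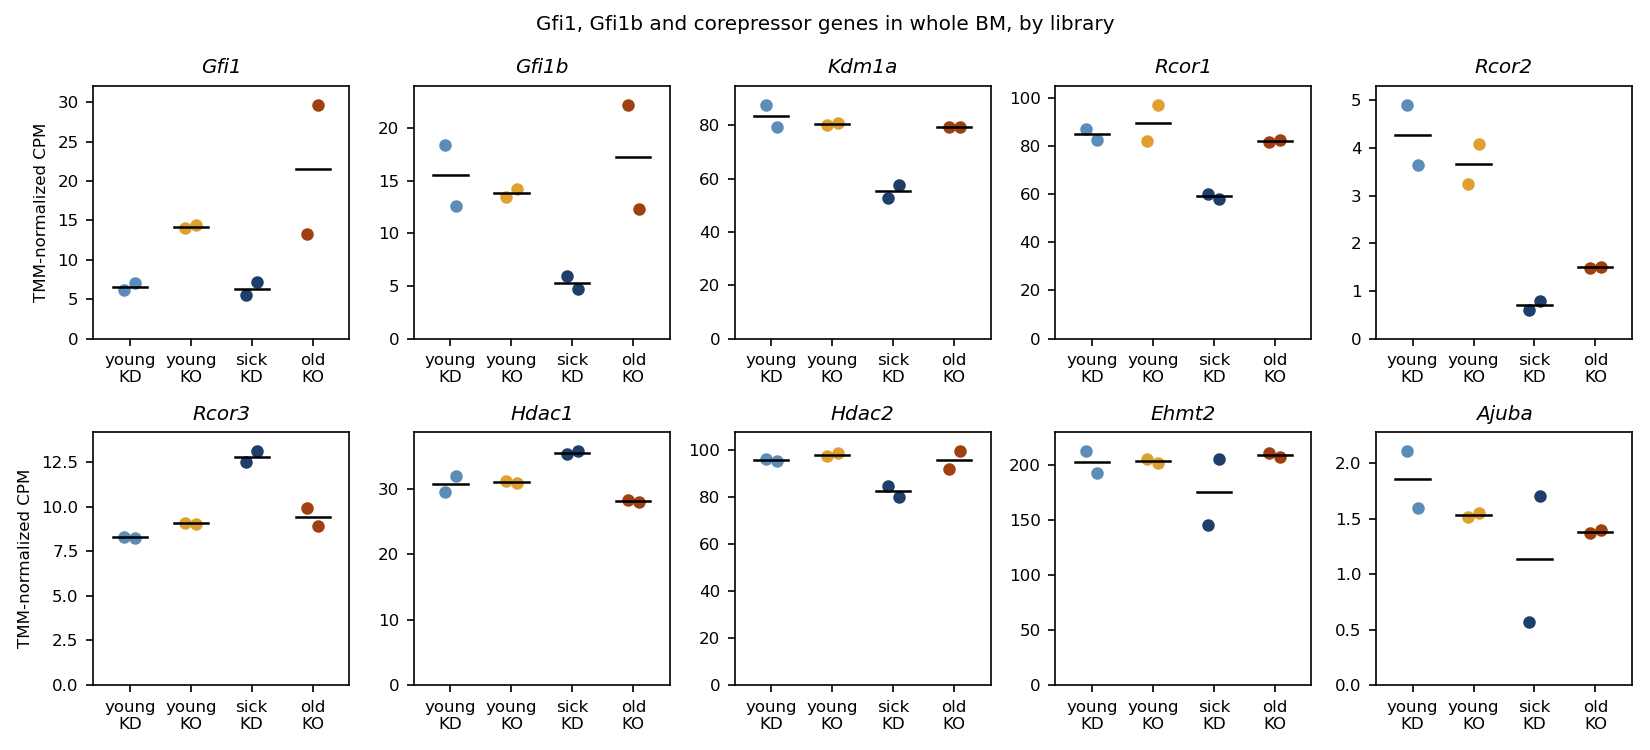
Normalized level (TMM CPM, linear axes from 0) of each of the 10 genes in 8 whole-BM libraries, 1 point per mouse and a bar at the mean of the 2 mice of each group. Both sick KD libraries lie below the other 6 for Gfi1b, Kdm1a, Rcor1, Rcor2 and Hdac2 and above them for Rcor3 and Hdac1, whereas for Gfi1 the 4 libraries labelled KD lie below the 4 labelled KO. The share of all genes whose sick KD pair lies apart in this way is not given here. Of all genes tested, 18.1% were called between old KO and sick KD and 20.9% between sick and young KD.

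Per kb of exon, the levels of the 10 genes spanned from those of Ehmt2 to those of Ajuba. The mean over 8 libraries was 36.1 CPM per kb for Ehmt2, 20.7 for Hdac2, 14.4 for Kdm1a, 13.9 for Rcor1 and 9.09 for Hdac1. It was 7.09 CPM per kb for Gfi1b, 3.81 for Gfi1, 0.802 for Rcor2, 0.726 for Rcor3 and 0.406 for Ajuba. Ehmt2 thus stood at percentile 90.4 of the genes tested and Ajuba at percentile 15.3. The corepressor genes shared by many cell types varied least, with a highest library 1.24 times the lowest for Hdac2 and 1.28 times for Hdac1. The range was widest for Rcor2 (8.11 times), Gfi1 (5.4 times) and Gfi1b (4.77 times). Kdm1a and Rcor1 lay next to each other in this order, and their ratio per kb was between 0.916 and 1.11 in all 8 libraries.

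The first comparison asks how the KO and KD states differ in young mice, before disease. None of the 10 genes was called between young KO and young KD mice (0 of 10), where 0.0404% of 14839 genes were called in either direction and 394 genes had an unadjusted p below 0.05. The targeted gene had the largest difference among the 10. Gfi1 (ENSMUSG00000029275, chr5:107716657-107726036, minus strand) measured 6.17 and 7.03 CPM in young KD, 14 and 14.4 CPM in young KO, 5.49 and 7.15 CPM in sick KD and 13.3 and 29.7 CPM in old KO. The 4 libraries labelled KO were thus all higher than the 4 labelled KD, against the direction the names of the alleles would give, and the groups are called by their labels throughout. The mouse gene counted here is not the human coding sequence of the KD allele, whose reads were not counted separately, and the exons removed in the KO allele were not examined. Gfi1 was 1.10 ± 0.13 (SE) higher on the log2 scale in young KO than in young KD, with an unadjusted p of 0.000175 and an adjusted p of 0.324 by edgeR. DESeq2 gave an adjusted p of 1.72e-05 for the same difference. The other 9 genes had log2 differences between -0.28 (Ajuba) and 0.13 (Rcor3) in these mice.

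A transcript on the opposite strand differed between the labelled genotypes in the direction opposite to Gfi1. A430072P03Rik (ENSMUSG00000090030, chr5:107725157-107728801) is a non-coding gene that overlaps the 5′ end of Gfi1 and shares 101 exon bases with it. Its level was 39.6 and 44.1 CPM in young KD and 39.4 and 42.6 CPM in sick KD, but 1.73 and 1.25 CPM in young KO and 1.52 and 2.35 CPM in old KO. It separated the labelled genotypes without overlap, in young as in older mice. A430072P03Rik fell by 4.80 ± 0.17 on the log2 scale from young KD to young KO (adjusted p = 0.000831, edgeR) and fell by 4.38 ± 0.23 from sick KD to old KO (adjusted p = 0.00265, edgeR). Between sick and young KD the log2 difference of A430072P03Rik was -0.04 (adjusted p = 0.839, edgeR). The strand setting of the read counting is not given in the sources used here, and the part of this locus in the Gfi1 counts was not tested. A430072P03Rik was named after its values were seen.

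**Figure D2:**
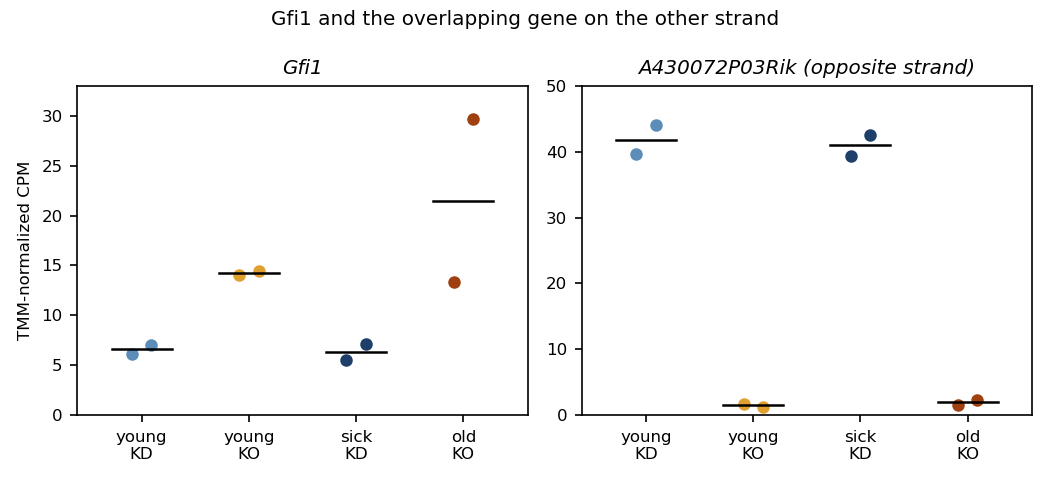
Normalized level (TMM CPM, linear axes from 0) of Gfi1 and of A430072P03Rik, which overlaps it on the other strand, with 1 point per mouse and a bar at the group mean. Gfi1 lies at 5.49 to 7.15 CPM in the 4 libraries labelled KD and at 13.3 to 29.7 CPM in those labelled KO, and A430072P03Rik lies at 39.4 to 44.1 CPM in KD and 1.25 to 2.35 CPM in KO.

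The second comparison asks how old KO mice, which carried no AML, differ from sick KD mice. Of the 10 genes 4 were called and all 4 were higher in old KO, namely Gfi1, Gfi1b, Kdm1a and Rcor1. Of 14470 genes tested 18.1% were called in either direction and 9.93% were called higher. The median log2 difference was 0.38 over the 10 genes, beside a median of all genes within 0.01 of 0. Gfi1 was 3.41-fold higher in the libraries labelled old KO (log2 difference 1.77 ± 0.38, adjusted p = 0.0234, edgeR). The old KO mice differed widely from each other, and the log2 difference was 1.07 without the second of them. Without the first sick KD mouse it was 1.59, with an adjusted p of 0.0914 by edgeR. Averaged over the young and the older mice, in a fit on all 8 mice, Gfi1 was 2.71-fold higher in KO than in KD (log2 difference 1.44 ± 0.24, adjusted p = 0.0157, edgeR), and it was called in 5 of the 8 fits without a mouse. It was not called without the first sick KD, the first young KO or the second young KD mouse, where the adjusted p was 0.0557 to 0.0576 by edgeR. The KO-KD difference of Gfi1 in older mice was not shown to differ from that in young mice (interaction 0.66 ± 0.47, adjusted p = 0.392, edgeR). Between sick and young KD the log2 difference of Gfi1 was -0.07 ± 0.22 (adjusted p = 0.848, edgeR). The difference of Gfi1 between old and young KO was 0.60 ± 0.35 (adjusted p = 0.743, edgeR). This value rested on the second old KO mouse, since it was -0.10 without that mouse and 1.06 without the first (adjusted p = 0.0424, edgeR).

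Gfi1b (ENSMUSG00000026815, chr2:28609450-28621982, minus strand) was low in the sick KD mice alone. It measured 5.9 and 4.66 CPM in sick KD, against 18.4 and 12.6 CPM in young KD, 13.4 and 14.2 CPM in young KO and 22.2 and 12.3 CPM in old KO. The sick KD libraries did not overlap with any other group, and the other 3 groups overlapped each other. Gfi1b was 3.28-fold higher in old KO than in sick KD (log2 difference 1.71 ± 0.31, adjusted p = 0.0149, edgeR) and 0.338 times its young KD level in sick KD (log2 difference -1.57 ± 0.24, adjusted p = 0.0116, edgeR). It was called in all 4 fits that left out a mouse in each of these comparisons. In young mice the KO-KD difference of Gfi1b was -0.18 on the log2 scale. The KO-KD difference of Gfi1b was larger in older than in young mice by 1.88 ± 0.41, tested as an interaction on all libraries (adjusted p = 0.0375, edgeR). It was 1.40 to 2.24 in the 8 fits without a mouse, and was called in 2 of them, those without the second old KO and without the second young KD mouse. Gfi1b did not pass the test of the mean KO-KD difference (0.77 ± 0.21, adjusted p = 0.0559, edgeR). It passed that test with DESeq2 (adjusted p = 0.00308), with no filter beyond 1 count (adjusted p = 2.06e-07, edgeR) and without the second old KO mouse (0.95, adjusted p = 0.0313, edgeR).

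Erythroid marker genes were, like Gfi1b, lowest in the sick KD mice. The 9 markers listed, among them Klf1 and Gata1, which encode transcription factors of red cell precursors, were all higher in old KO than in sick KD (9 of 9 called, median log2 difference 2.29). All 9 were lower in sick KD than in young KD (median log2 difference -1.84), and none was called between young KO and young KD or between old and young KO. Their summed level was 431 and 541 CPM in sick KD, 1250 and 2180 CPM in old KO, 880 and 1630 CPM in young KO and 950 and 1850 CPM in young KD, with none of the 9 at 0 in any library. Klf1 itself measured 6.86 and 8.82 CPM in sick KD and 22.7 to 51.4 CPM in the other 6 libraries. The libraries with the highest and second highest erythroid sum, the first old KO and the first young KD mouse, were also those with most Gfi1b. Below them the order differed. The second old KO library had a sum of 1250 CPM with 12.3 CPM of Gfi1b. The first young KO library had a lower sum, 880 CPM, with 13.4 CPM of Gfi1b. Of 8 megakaryocyte markers none was called in any comparison, and their summed level overlapped between the groups, at 94.7 and 186 CPM in sick KD and 72.8 to 331 CPM in the others. The part of erythroid RNA in the Gfi1b difference was not tested. In whole BM, fewer cells of a type and less RNA per cell cannot be told apart.

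**Figure D3:**
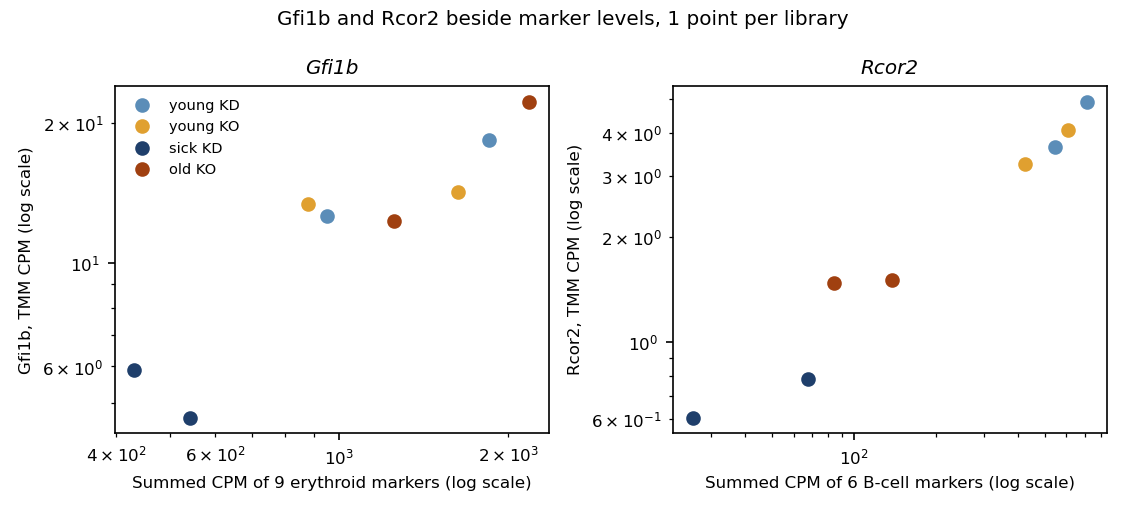
Level of Gfi1b against the summed level of 9 erythroid markers and level of Rcor2 against the summed level of 6 B-cell markers (TMM CPM, log scale on all axes), 1 point per library coloured by group. Both sick KD libraries lie at the lower left, with 4.66 and 5.9 CPM of Gfi1b and 0.606 and 0.782 CPM of Rcor2, and the old KO libraries lie between sick KD and the young mice for Rcor2 but not for Gfi1b.

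The enzyme and the main scaffold of the complex were both lower in sick KD mice. Kdm1a (ENSMUSG00000036940, chr4:136550540-136602723, minus strand) measured 52.8 and 57.7 CPM in sick KD and 79.4 and 79.5 CPM in old KO. It measured 80 and 81.1 CPM in young KO and 87.8 and 79.5 CPM in young KD. Both sick KD values lay below all 6 others, which were within 79.4 to 87.8 CPM. Kdm1a was 1.44-fold higher in old KO than in sick KD (log2 difference 0.53 ± 0.11, adjusted p = 0.0224, edgeR) and stood at 0.657 times its young KD level in sick KD (-0.61 ± 0.11, adjusted p = 0.0173, edgeR). The latter call was lost without the first young KD mouse (-0.54, adjusted p = 0.101, edgeR). Its interaction was 0.58 ± 0.13 (adjusted p = 0.0372, edgeR) and was called in 1 of the 8 fits without a mouse, that without the second sick KD mouse. The difference between old KO and sick KD was 0.46 to 0.59 in the 4 fits without a mouse, but was called in only 1 of them, the one without the second sick KD mouse.

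Rcor1 (ENSMUSG00000037896, chr12:111039351-111115901, plus strand), the scaffold CoREST that joins LSD1 to the deacetylases, had nearly the same pattern as Kdm1a. It measured 60.1 and 58.1 CPM in sick KD, 81.7 and 82.5 CPM in old KO, 82.2 and 97.1 CPM in young KO and 86.9 and 82.6 CPM in young KD. Sick KD was again below every other library. Rcor1 was 1.39-fold higher in old KO than in sick KD (0.48 ± 0.11 on the log2 scale, adjusted p = 0.0259, edgeR) and 0.694 times its young KD level in sick KD (-0.53 ± 0.10, adjusted p = 0.0188, edgeR). It was called in 2 of 4 fits without a mouse in the former comparison, losing the call without either old KO mouse, and in 3 of 4 in the latter, losing it without the first young KD mouse (adjusted p = 0.129, edgeR). The mean KO-KD difference of Rcor1 over young and older mice was 0.28 ± 0.07 (adjusted p = 0.048, edgeR), and its interaction was 0.39 ± 0.14 (adjusted p = 0.116, edgeR). That mean difference was not called in any of the 8 fits without a mouse. Gfi1 and Rcor1 were the 2 of the 10 genes called for the mean KO-KD difference, where 8.82% of 15102 genes were called. For the interaction, where 7.43% of 15102 genes were called, the 2 called were Gfi1b and Kdm1a.

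The third comparison, between sick and young KD mice, called 5 of the 10 genes. Gfi1b, Kdm1a, Rcor1 and Rcor2 were lower in sick KD and Rcor3 was higher. In this comparison 20.9% of 14656 genes were called in either direction and 11.4% were called lower. The paralogs of Rcor1 thus went in opposite directions. Rcor2 (ENSMUSG00000024968, chr19:7267325-7275225, plus strand) was a rare transcript in whole BM, with 0.606 and 0.782 CPM in sick KD, from 15 and 22 counts. It had 1.48 and 1.51 CPM in old KO, 3.25 and 4.08 CPM in young KO and 4.91 and 3.65 CPM in young KD. The older mice of both genotypes lay below all young mice. Rcor2 stood at 0.163 times its young KD level in sick KD (log2 difference -2.62 ± 0.31, adjusted p = 0.00616, edgeR) and was called in all 4 fits without a mouse. Between old and young KO the log2 difference of Rcor2 was -1.29 ± 0.25 with an unadjusted p of 0.00206 and an adjusted p of 0.114 by edgeR, while DESeq2 gave an adjusted p of 0.0372. Between old KO and sick KD it was 1.10 ± 0.33 (adjusted p = 0.0612, edgeR), and with a filter of 10 counts in every library the adjusted p was 0.041. The adjusted p of that difference was 0.0303 with no filter beyond 1 count and 0.0263 with all 8 mice in 1 fit (edgeR).

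The B-cell marker genes followed, as a sum, the same order of groups as Rcor2. The summed level of 6 B-cell markers was 25.6 and 67.5 CPM in sick KD, 84.5 and 138 CPM in old KO, 423 and 607 CPM in young KO and 543 and 715 CPM in young KD. No marker was at 0 in any library. All 6 were called lower in sick KD than in young KD (median log2 difference -3.83), where 11.4% of all genes tested were called lower. In old against young KO 5 of 6 were called lower (median -2.34), where 0.929% of all genes were called in either direction. Between old KO and sick KD only 1 of 6 was called, higher in old KO (median 1.18), where 9.93% of all genes were called higher. The levels of Ebf1 and Vpreb1 overlapped between those groups, and the other markers did not. The part of B-cell RNA in the Rcor2 difference was not tested.

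Rcor3 (ENSMUSG00000037395, chr1:192098546-192138062, minus strand), the remaining CoREST paralog, was the only one of the 10 genes called higher in sick KD in the main tests. It measured 12.5 and 13.1 CPM in sick KD, 9.94 and 8.93 CPM in old KO, 9.09 and 9.02 CPM in young KO and 8.28 and 8.26 CPM in young KD. Rcor3 was 1.54-fold higher in sick KD than in young KD (log2 difference 0.62 ± 0.15, adjusted p = 0.0348, edgeR). The size was 0.59 to 0.66 in the 4 fits without a mouse, but none of them called it. Between old KO and sick KD the log2 difference was -0.44 ± 0.18 (adjusted p = 0.131, edgeR), and the interaction was -0.57 ± 0.19 (adjusted p = 0.1, edgeR). With all 8 mice in 1 fit, Rcor3 was called between old KO and sick KD (-0.44, adjusted p = 0.0427, edgeR). Within each library, Rcor1 stood at 10.6 and 11.5 times the level of Rcor3 per kb in sick KD and at 19.7 to 25.8 times in the other 6 libraries. That ratio does not depend on the scaling between libraries. Rcor3 shares exon bases with the antisense genes Gm26879 and Gm10516, which had at most 4 and 19 counts in any library.

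The deacetylase genes varied least between libraries. Hdac1 (ENSMUSG00000028800, chr4:129516104-129542713, minus strand) measured 35.2 and 35.7 CPM in sick KD, 28.2 and 27.9 CPM in old KO, 31.2 and 30.8 CPM in young KO and 29.5 and 31.9 CPM in young KD. Hdac2 (ENSMUSG00000019777, chr10:36974544-37001889, plus strand) measured 84.6 and 80 CPM in sick KD, 91.7 and 99.3 CPM in old KO, 97.4 and 98.4 CPM in young KO and 96 and 95.1 CPM in young KD. In sick KD both Hdac1 values were above, and both Hdac2 values below, those of the other 6 libraries, and neither gene passed the test in any of the comparisons. Between old KO and sick KD the log2 difference was -0.34 ± 0.12 for Hdac1 (adjusted p = 0.087, edgeR) and 0.22 ± 0.11 for Hdac2 (adjusted p = 0.205, edgeR). Between sick and young KD it was 0.20 ± 0.11 for Hdac1 and -0.22 ± 0.10 for Hdac2. After removal of each library's trend with GC content, length and gene span, both genes were called between old KO and sick KD, at -0.43 for Hdac1 and 0.35 for Hdac2. Under that setting Hdac2 was also called between sick and young KD (-0.25, adjusted p = 0.0483, edgeR). Hdac1 was called in the interaction (-0.43, adjusted p = 0.0475, edgeR). Both were called for the mean KO-KD difference, at -0.22 for Hdac1 and 0.19 for Hdac2. With all 8 mice in 1 fit, Hdac1 was called between old KO and sick KD as well (-0.34, adjusted p = 0.0261, edgeR). The ratio of Hdac2 to Hdac1 per kb was 1.72 and 1.85 in sick KD and 2.29 to 2.74 in the other 6 libraries.

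Ehmt2 and Ajuba differed between the sick KD mice themselves. Ehmt2 (ENSMUSG00000013787, chr17:34898469-34914052, plus strand) measured 146 and 206 CPM in sick KD and 193 to 213 CPM in the other 6 libraries. Ajuba (ENSMUSG00000022178, chr14:54567472-54577558, minus strand) measured 0.565 and 1.71 CPM in sick KD, from 14 and 48 counts, and 1.37 to 2.11 CPM in the others. In both cases the first sick KD mouse, aged 187 days, was the lowest of all 8 libraries and the second lay among the other groups. Neither gene was called in any comparison of all mice. Without the second sick KD mouse, Ehmt2 was called between sick and young KD (-0.48, adjusted p = 0.034, edgeR), between old KO and sick KD (0.52, adjusted p = 0.0394, edgeR) and for the mean KO-KD difference (0.25, adjusted p = 0.0473, edgeR). Without that mouse Ajuba was called between sick and young KD, at -1.72 (adjusted p = 0.0444, edgeR), against -0.70 ± 0.50 with all mice and -0.13 at the other end of the range without a mouse. The log2 difference between old KO and sick KD was 0.25 ± 0.18 for Ehmt2 and 0.28 ± 0.49 for Ajuba. Leaving out a mouse moved that of Ajuba between -0.29 and 1.29.

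**Figure D4:**
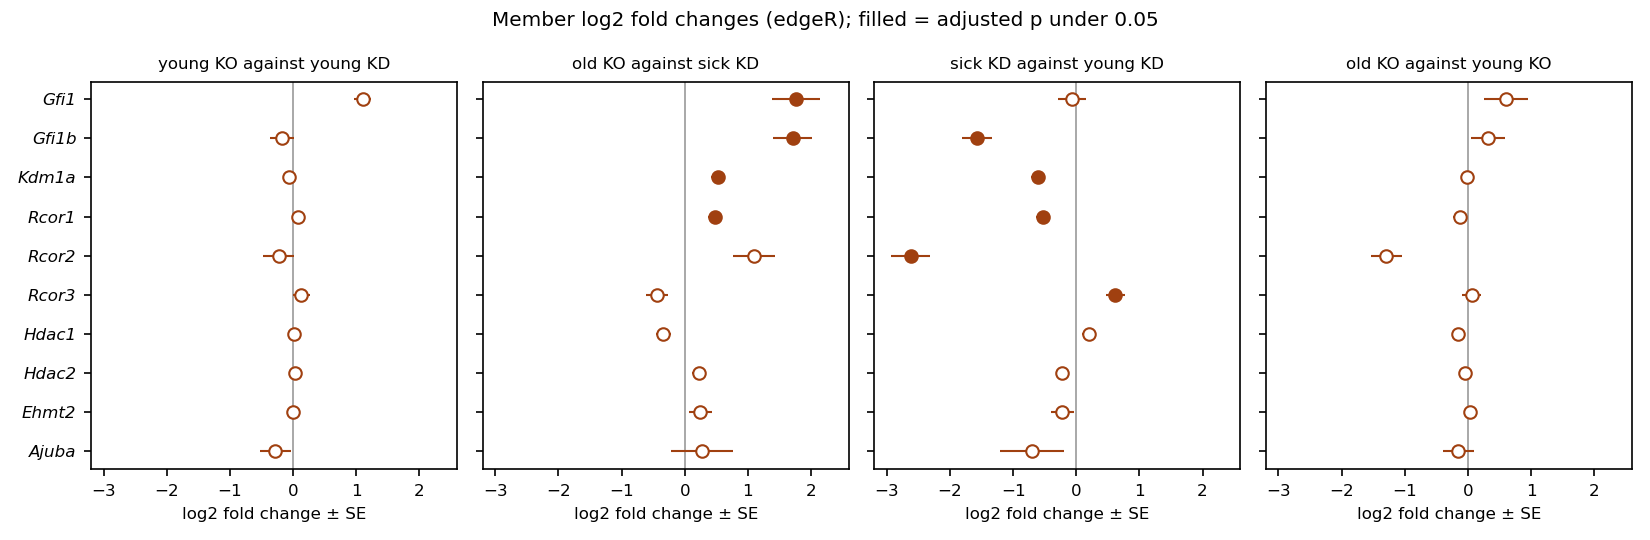
Log2 fold change of the 10 genes in 4 comparisons of 2 against 2 mice (edgeR), with bars for the SE and filled points for an adjusted p below 0.05. No point is filled between young KO and young KD or between old and young KO, 4 are filled between old KO and sick KD, all to the right of 0, and 5 are filled between sick and young KD, with Rcor3 at 0.62 to the right and 4 to the left down to -2.62 for Rcor2.

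Old and young KO mice were the fourth comparison. None of the 10 genes was called (0 of 10), where 0.929% of 14847 genes were called and 1315 had an unadjusted p below 0.05. Rcor2 and Gfi1 had the largest differences, given above. For the other 8 genes the log2 differences ran from -0.15 for Hdac1 and Ajuba to 0.32 ± 0.27 for Gfi1b.

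The wider set of corepressor genes was described by lists. Beside their counts stand the shares of all genes called, 18.1% between old KO and sick KD and 20.9% between sick and young KD. Of 7 other subunits of LSD1-CoREST complexes, none was called between old KO and sick KD (median log2 difference 0.10) and 1 was called between sick and young KD. This was Kdm1b, the paralog of Kdm1a, with 24 and 22.3 CPM in sick KD and 44.3 and 38.9 CPM in young KD (-0.86 ± 0.13, adjusted p = 0.0102, edgeR). Kdm1b measured 25.6 and 28 CPM in old KO and 37 and 43.9 CPM in young KO, so that older mice of both genotypes lay below the young mice. Of 5 other H3K9 methyltransferases and partners, such as Ehmt1 and Setdb1, none was called in any of the 6 tests. The same held for the 6 other partners of Gfi1 that matched an identifier, of 7 listed.

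Among 12 subunits of other deacetylase complexes, 1 was called higher and none lower between old KO and sick KD, with a list median of 0.22. This was Chd4, the remodelling ATPase of NuRD, which measured 341 and 374 CPM in sick KD and 547 to 599 CPM in the other 6 libraries. Chd4 was higher in old KO than in sick KD by 0.70 ± 0.14 (adjusted p = 0.0182, edgeR) and stood at a log2 difference of -0.66 ± 0.11 in sick against young KD (adjusted p = 0.0149, edgeR). It was also called in the interaction, at 0.66 ± 0.13 (adjusted p = 0.0317, edgeR). Mta3, another NuRD subunit, measured 53.5 and 58.5 CPM in sick KD and 36.5 to 45.8 CPM in the others, and was called higher in sick than in young KD by 0.48 ± 0.11 (adjusted p = 0.0295, edgeR).

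**Figure D5:**
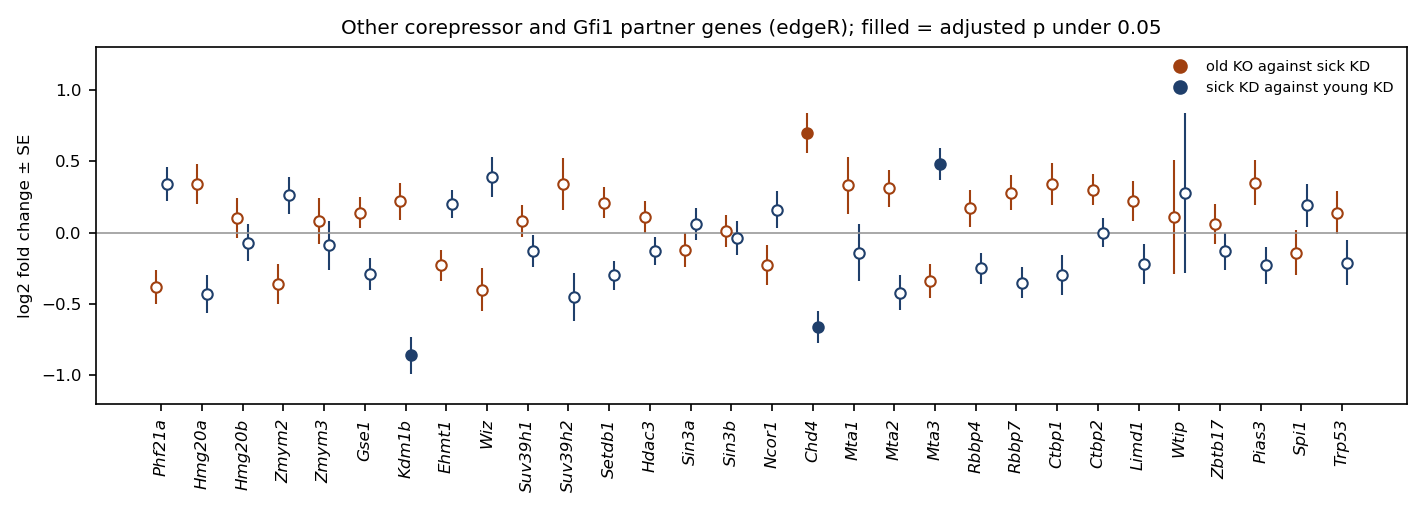
Log2 fold change with SE (edgeR) of 30 other corepressor and Gfi1 partner genes between old KO and sick KD and between sick and young KD, filled where the adjusted p is below 0.05. Kdm1b, at -0.86 between sick and young KD, and Chd4, at 0.70 and -0.66, lie farthest from 0.

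Of 15 genes that have been described as repressed by Gfi1 or Gfi1b, none was called between young KO and young KD (median log2 difference -0.14) or between old and young KO. Between old KO and sick KD 3 were called higher and 2 lower, where 18.1% of all genes tested were called in either direction. Both of the lower genes encode inhibitors of DNA binding by helix-loop-helix factors. Id2 measured 178 and 146 CPM in sick KD and 46 to 58 CPM in the other 6 libraries (-1.66 between old KO and sick KD, adjusted p = 0.00346, edgeR). Id1 measured 51.2 and 58.3 CPM in sick KD and 24.1 to 31.7 CPM in the others (-0.98, adjusted p = 0.00566, edgeR). Id1 and Id2 also passed the interaction test, at -1.06 and -1.37. Il7r, the receptor chain for interleukin-7 on lymphoid precursors, was higher in old KO than in sick KD by 1.32 (adjusted p = 0.0249, edgeR). Between sick and young KD 2 of the 15 rose and 5 fell, where 20.9% of all genes tested were called in either direction. Among those that fell were Il7r (-3.05), Egr2 (-1.92) and Socs1 (-1.57). The list therefore had no single direction in either comparison.

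Markers of the other cell types give the setting of these levels. Among all genes, 18.1% were called between old KO and sick KD and 20.9% between sick and young KD. Of 5 granulocyte progenitor markers 4 were called higher in sick than in young KD and 2 were called lower in old KO than in sick KD, with summed levels of 6280 and 7040 CPM in sick KD and 4250 to 5490 CPM in the other 6 libraries. The summed level of 6 stem and progenitor markers, at 158 to 264 CPM, overlapped between sick KD and the other groups. Between old KO and sick KD, 1 of 7 mature neutrophil markers was called higher and 1 lower, as were 1 and 1 of 6 monocyte markers, and 2 of 6 T and NK cell markers were called higher. Of 8 proliferation genes none was called in any test. Their part in the levels of Gfi1 and the corepressor genes was not tested.

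The genes most like 3 of the members over the 8 libraries were found by Pearson's r of log2(CPM + 1) among 9633 protein-coding genes of at least 5 mean CPM. They are given as a description, since each value rests on 8 libraries in which the sick KD pair stands apart. For Gfi1b they were Sh3tc2 (r = 0.993), Slc22a23 (0.992) and Mgll (0.991), which measured 3.17 to 5.53 CPM in sick KD and 10.4 to 28.5 CPM in the other libraries. Their log2 differences between old KO and sick KD were 2.06 to 2.39. They were chosen for following Gfi1b over these same libraries, so this is no separate result. For Kdm1a they were Dync1li1 (0.995), Ncbp2 (0.994) and Ncapd2 (0.994), of which Ncbp2 had 30.9 and 33.6 CPM in sick KD and 45.3 to 50.9 CPM in the others. For Gfi1 the values were lower, at 0.964 for Gorasp2 and 0.962 for Calr and Mvd, and none of these 3 was called between old KO and sick KD (log2 differences 0.20, 0.34 and 0.26, against 1.77 for Gfi1).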

How the data were processed

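Whole BM cells of 8 mice were profiled by RNA-seq. The authors made stranded poly(A) libraries, aligned reads to mm10 with TopHat2 2.0.10, used SAMtools and counted reads per Ensembl gene with HTSeq, and the deposited values are these raw counts. The strand setting and the Ensembl release are not given in the sources used here. Results of the authors' own tests were not used.

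Differential expression was computed here in R 4.3.3 using edgeR 4.0.16 (TMM, filterByExpr by group, quasi-likelihood F test, Benjamini-Hochberg over all genes tested, threshold 0.05). Each of the 4 comparisons was fitted on its own 4 mice, and the interaction and the mean KO-KD difference on all 8. The SE was derived as |log2 fold change| over the root of F. CPM used TMM factors over all 8 libraries, and log2 levels a pseudocount of 1. Library totals were 26642067 to 42679114 counts. Rows that name no gene, which held 26.9% to 42% of reads as no-feature reads, were left out. Replicates of a group differed by more than counting noise.

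Symbols, coordinates and exon lengths came from GENCODE M21 on GRCm38, which gave 40340 of 41214 identifiers a symbol, and promoters from RefSeq on GRCm38.p6. All 10 members are described in each comparison. Of each other list the counts, the median and at most 3 called genes with the largest change are named. Of the lists, 2 genes are not reported here and entered no count or sum. The members and lists were chosen with earlier results of these data known. Alternatives were DESeq2 1.42.0, RLE factors, TMM on protein-coding genes, other filters, 1 fit of all 8 mice, removal of GC, length and span trends, and leaving out each mouse, in which the lone mouse of a group is assumed to vary like the others. The fit was tested on simulated data. Mice share no number between groups, so nothing was paired.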

Additional observations from a re-analysis of the deposited data

Results flagged for a closer look

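By the interaction test of edgeR, 7.43% of 15102 genes were called in either direction. The KO-KD difference of 2 of the 10 genes differed between young and older mice by that test. For Gfi1b it was 1.88 larger on the log2 scale in old KO against sick KD than in young mice (adjusted p = 0.0375, edgeR), with a KO-KD difference of -0.18 in young mice and 1.71 in older mice. For Kdm1a the interaction was 0.58 (adjusted p = 0.0372, edgeR), from -0.06 in young and 0.53 in older mice. Without a mouse the interaction was 1.40 to 2.24 for Gfi1b and 0.51 to 0.65 for Kdm1a. Both calls depended on single mice, as given above. The sick KD pair was the lowest of the 4 groups for both genes, and disease, age and genotype cannot be told apart in this difference.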

How the results depend on the processing

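Over the members' log2 fold changes in 6 tests, 625 values kept direction and side of the threshold under the alternatives, 38 lost the call, 28 gained it and 29 changed sign. The number of all genes called moved with the setting too, so the counts below do not describe the 10 genes alone. With all 8 mice in one fit, 4200 of 15102 genes tested were called between old KO and sick KD. The main test of that comparison called 2626 of 14470. Leaving out a mouse also moved the calls over all genes, as given further below. The number of the 10 genes called between young KO and KD was 0 in the main test and 1 (Gfi1) with DESeq2 and with no filter beyond 1 count. Between old KO and sick KD it was 7 with all 8 mice in one fit and 2 to 5 without a mouse, with 2 without the first sick KD mouse or either old KO mouse. Between sick and young KD it was 2 to 6 without a mouse, with 2 in the fit without the first young KD mouse. Between old and young KO it was 1 (Rcor2) with DESeq2 and with no filter, and 0 to 1 without a mouse, with 1 (Gfi1) without the first old KO mouse. For the interaction it was 0 to 1 without a mouse. For the mean KO-KD difference it was 4 with DESeq2, no filter or the trend removed, 1 with RLE or TMM on protein-coding genes, and 0 to 3 without a mouse, with 0 without the first sick KD, first young KO or second young KD mouse.

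Changes of sign between young KO and KD were Ehmt2 with all 8 mice (0.00) and Hdac1 with the trend removed (-0.01). With the trend removed, Gfi1 (0.09) and Ehmt2 (0.02) turned between sick and young KD and Hdac2 (0.07) between old and young KO. The mean KO-KD difference of Ajuba turned with TMM on protein-coding genes (-0.01) and with the trend removed (-0.09). Without a mouse, the young KO-KD differences ranged from -0.42 to 0.13 for Gfi1b, -0.13 to 0.02 for Kdm1a, -0.05 to 0.19 for Rcor1, -0.43 to 0.00 for Rcor2, -0.05 to 0.07 for Hdac1 and -0.07 to 0.07 for Ehmt2. Ajuba ranged from -0.29 to 1.29 between old KO and sick KD, from -0.02 to 1.55 in the interaction and from -0.28 to 0.50 in the mean. Between sick and young KD the range was -0.27 to 0.11 for Gfi1 and -0.48 to 0.01 for Ehmt2. Between old and young KO it was -0.10 to 1.06 for Gfi1, -0.16 to 0.69 for Gfi1b, -0.25 to 0.00 for Rcor1, -0.02 to 0.13 for Rcor3 and -0.10 to 0.02 for Hdac2. The interaction of Gfi1 ranged from -0.04 to 1.12. The cause was not tested.

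With no filter, more genes were tested and called (119 between young KO and KD, 4325 between old KO and sick KD, 796 between old and young KO, 2919 in the interaction and 3006 for the mean, against 6, 2626, 138, 1122 and 1332). DESeq2 called 27, 383 and 1951 in the young, the old and young KO and the interaction tests. All 8 mice in one fit gave 3, 4200 and 94 calls in the young, the old KO against sick KD and the old against young KO tests. With the trend removed 87 were called between old and young KO and 1949 in the interaction. Rcor2 and Ajuba had as few as 15 and 14 counts in a library. Leaving out a mouse moved the calls over all genes to 2 to 8 (young), 1221 to 2795 (old KO against sick KD), 1316 to 3401 (sick against young KD, 3063 otherwise), 17 to 307 (old against young KO), 106 to 1614 (interaction) and 210 to 1961 (mean). The background shares thus depend on single mice, and the lowest counts came without the first young KO, first sick KD, first young KD, second young KO, first young KD and first young KO mouse, in that order. No paired analysis was possible because the groups share no mouse numbers.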
